A study of Rattus norvegicus with 6 samples.

Results

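The genes followed here in rat liver were 6, the nuclear receptor gene Ppara and 5 genes of the carnitine shuttle, Cpt1a, Cpt2, Slc25a20, Crat and Crot. They were chosen by name, and each was represented by the brightest of its probe sets with a single gene symbol, of which each had 1; they are 6 of 22093 genes measured. The samples were livers of adult Sprague Dawley rats, 3 from offspring of fathers made hyperglycaemic by intraperitoneal streptozotocin (STZ-O) and 3 from offspring of fathers given citrate buffer (CB-O), each hybridised to 1 Affymetrix rat transcriptome array. Streptozotocin kills the insulin-producing beta cells, and was given to the fathers; the mothers of both groups were healthy, and the offspring themselves received no agent named in the labels. All the animals ate chow and were killed in the fed state, 1 per litter, with no distinction by sex. The labels give neither the number of fathers nor the time of day of killing. The series asked how a father's hyperglycaemia bears on the metabolism, above all of lipids, of its progeny.

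Long-chain fatty acids cross the inner mitochondrial membrane as carnitine esters. CPT1A at the outer membrane forms the ester and is inhibited by malonyl-CoA, the carrier SLC25A20 exchanges acylcarnitine for carnitine, and CPT2 at the inner membrane restores the acyl-CoA for oxidation. CRAT acts on acetyl and other short acyl groups and CROT on the medium-chain products of peroxisomal oxidation. PPARalpha, the product of Ppara, binds fatty acids, pairs with RXR and activates genes of fatty acid catabolism in liver, above all in fasting.

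Ppara stood higher in offspring of hyperglycaemic fathers, and all 5 shuttle genes had a lower mean. On the log2 scale the means differed by 0.47 for Ppara (1.39-fold), -0.40 for Cpt1a, -0.26 for Cpt2, -0.19 for Crat, and -0.04 for both Slc25a20 and Crot. Across all genes the median difference was -0.004, and 48.1% were higher in STZ-O. No member passed limma's test after Benjamini-Hochberg adjustment over all 22093 genes, and 0 genes in the whole table did (0%), while 1255 had an unadjusted p under 0.05 (5.68%). The p-values therefore order the members among the other genes and call none of them. An unadjusted p under 0.05 was seen for 4 of the 6 members, 1 higher (background 3.20%) and 3 lower (background 2.48%). Of these, Cpt1a (limma unadjusted p = 0.0488) and Crat (0.0303) lay nearest the threshold. With 1 array left out, limma's unadjusted p ranged from 0.000353 to 0.16 for Cpt1a and from 0.013 to 0.0999 for Crat, so the count depended on single arrays. The arrays of the groups did not overlap for 3 of the 6, 1 with STZ-O above (background 5.20%) and 2 with STZ-O below (background 4.93%), where 10.1% of all genes had groups that did not overlap in either direction. The members were picked with earlier results in view, so these shares describe them and test nothing.

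**Figure D1:**
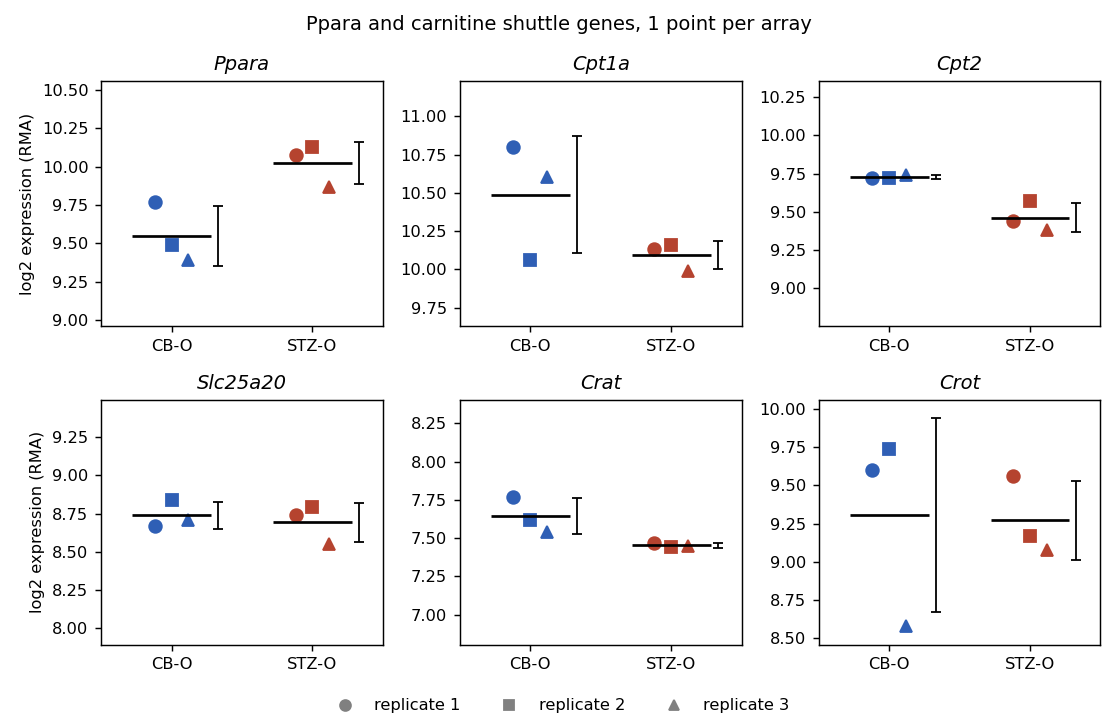
Log2 expression of the 6 genes on each array (vertical axes, each spanning the same range), with CB-O at left and STZ-O at right of each panel. Points are arrays with the shape giving the replicate number, horizontal lines are group means and the bars beside them are SDs (n = 3). Ppara on all 3 STZ-O arrays lay above the CB-O arrays, Cpt2 and Crat lay below, and the groups overlapped for Cpt1a, Slc25a20 and Crot.

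The stretches upstream of the receptor gene and of the 3 shuttle genes with the largest differences are shown because PPARalpha is known to act on genes of this pathway by binding DNA. Sequences are from RefSeq on rat build GRCr8, each the 250 bases before the gene's annotated start, 5′ to 3′ on the gene's own strand. All 6 members had an entry. Capitals mark the GC box GGGCGG or its reverse complement. The Ppara window is chr7:118712357-118712606 on the plus strand, that of Cpt1a chr1:209995910-209996159 on the plus strand, that of Cpt2 chr5:127910819-127911068 on the minus strand and that of Crat chr3:34087100-34087349 on the minus strand.
Ppara: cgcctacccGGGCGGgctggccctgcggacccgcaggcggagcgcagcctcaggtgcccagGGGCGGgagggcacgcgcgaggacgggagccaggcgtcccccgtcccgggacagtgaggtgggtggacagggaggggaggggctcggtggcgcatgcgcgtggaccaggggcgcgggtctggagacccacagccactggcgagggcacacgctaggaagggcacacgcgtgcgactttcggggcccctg
Cpt1a: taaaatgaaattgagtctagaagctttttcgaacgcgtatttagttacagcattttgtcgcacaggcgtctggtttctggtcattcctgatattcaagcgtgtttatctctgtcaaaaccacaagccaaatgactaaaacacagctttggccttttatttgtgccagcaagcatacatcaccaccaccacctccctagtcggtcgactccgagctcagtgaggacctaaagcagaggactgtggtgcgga
Cpt2: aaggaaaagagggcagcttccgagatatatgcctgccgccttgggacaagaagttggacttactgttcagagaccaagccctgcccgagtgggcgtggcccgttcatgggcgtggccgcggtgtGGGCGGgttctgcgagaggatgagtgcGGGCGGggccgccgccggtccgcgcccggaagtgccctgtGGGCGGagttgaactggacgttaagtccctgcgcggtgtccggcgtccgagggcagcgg
Crat: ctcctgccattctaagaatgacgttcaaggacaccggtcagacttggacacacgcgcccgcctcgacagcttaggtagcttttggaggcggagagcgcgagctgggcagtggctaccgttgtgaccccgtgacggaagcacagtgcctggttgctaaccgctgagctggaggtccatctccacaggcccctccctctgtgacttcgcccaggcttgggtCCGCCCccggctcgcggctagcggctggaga

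These 4 windows differed in composition. The Ppara window had 76.0% G and C and 27 CpG dinucleotides, more G and C than 97.1% of the 33469 windows of the same length. Cpt2 had 66.8% with 26 CpG, and Crat 63.6% with 19. Cpt1a stood apart with 45.6% and 10 CpG, below the median of 51.2% over all windows and with no GC box. GC boxes began 241 and 189 bases before the start in Ppara, at 126, 99 and 59 in Cpt2, and at 31 in Crat; a GC box on either strand was in 30.5% of all windows.

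PPARalpha and RXR bind a direct repeat of copies of AGGTCA or close variants of it. The exact letters AGGTCA were in none of the 6 windows on either strand and in 14.1% of all windows. Matches to the whole repeat and its variants are not reported here. The E-box CACGTG (5.59%) and TATAAA (12.9%) were also in none of the 6, and CCAAT (34.0%) was in Crot only. These motifs were chosen after the sequences had been read. The windows do not reach introns or distant sites, so they bear on these letters here only.

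Ppara, the receptor gene, had log2 levels of 10.08, 10.13 and 9.87 in STZ-O and of 9.77, 9.49 and 9.39 in CB-O. Every STZ-O array lay above every CB-O array, with a gap of 0.10 between STZ-O replicate 3 and CB-O replicate 1, the nearest arrays. The means were 10.02 ± 0.14 (SD, n = 3) and 9.55 ± 0.19, and the difference was 0.47 ± 0.11 (limma's SE; 95% interval 0.21 to 0.73; limma unadjusted p = 0.00302, adjusted p = 0.57). By p it ranked 116 among the 22093 genes, so 0.525% of genes had a p as small. With 1 array left out the difference was 0.39 to 0.58. Its spread within groups, a pooled SD of 0.17, exceeded that of 80.6% of the 2911 genes above the 95th percentile of negative controls (8.26), and the difference was larger than that spread.

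Cpt1a, the malonyl-CoA-sensitive entry step, was at 10.13, 10.16 and 9.99 in STZ-O and at 10.80, 10.06 and 10.60 in CB-O. The STZ-O arrays lay close together and CB-O replicate 2 lay among them, so the groups overlapped; the other two CB-O arrays were higher. The means were 10.09 ± 0.09 (SD, n = 3) and 10.49 ± 0.38, with a difference of -0.40 ± 0.17 (SE; 95% interval -0.79 to -0.003; limma adjusted p = 0.877). Which CB-O array was included set its size: -0.61 without CB-O replicate 2, but -0.24 when CB-O replicate 1 was omitted. The pooled SD of 0.28 was above that of 94.5% of the brighter genes.

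Cpt2, which returns the acyl group to CoA inside the mitochondrion, was at 9.44, 9.57 and 9.38 in STZ-O. On the CB-O arrays it was at 9.72, 9.72 and 9.74. All 3 STZ-O arrays lay below the narrow CB-O range of 0.02, the nearest by 0.15. The difference was -0.26 ± 0.06 (SE; 1.20-fold lower; 95% interval -0.41 to -0.12; limma unadjusted p = 0.00359, adjusted p = 0.616), rank 128 by p. It ranged from -0.32 to -0.22 with 1 array left out, and of the shuttle genes it had the smallest p in the comparison of all 6 arrays.

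Slc25a20, the carnitine-acylcarnitine carrier between the 2 transferase steps, was at 8.74, 8.79 and 8.55 in STZ-O and 8.67, 8.84 and 8.71 in CB-O. The groups overlapped throughout, and the lowest array was STZ-O replicate 3. The difference was -0.04 ± 0.08 (SE; 95% interval -0.23 to 0.15; limma adjusted p = 0.99). Without STZ-O replicate 3 it was 0.03, and 0.01 when CB-O replicate 2 was omitted, so its sign depended on single arrays. The interval includes both 0 and the value seen for Crat.

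Crat, the acetyl transferase, was at 7.47, 7.44 and 7.45 in STZ-O and 7.77, 7.62 and 7.54 in CB-O. The STZ-O arrays spanned 0.03 and all lay below the CB-O arrays, the nearest by 0.07. The difference was -0.19 ± 0.07 (SE; 1.14-fold lower; 95% interval -0.35 to -0.02; limma unadjusted p = 0.0303, adjusted p = 0.837), or -0.12 without CB-O replicate 1. Crat was the one member whose mean, 7.55, lay below 8.26, though above the negative control median of 5.51; array summaries compress the differences of dim probe sets.

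Crot, the peroxisomal octanoyl transferase, was at 9.56, 9.17 and 9.08 in STZ-O and 9.60, 9.74 and 8.58 in CB-O. CB-O replicate 3 was the lowest of the 6 and the other two CB-O arrays the highest, a range of 1.16 within 1 group. The pooled SD of 0.48 exceeded that of 98.9% of the brighter genes. The difference was -0.04 ± 0.29 (SE; 95% interval -0.70 to 0.63; limma adjusted p = 0.996), -0.40 without CB-O replicate 3 but 0.18 when CB-O replicate 2 was omitted. The interval includes differences of the size seen for Ppara and for Cpt1a, so differences of that size were not detectable for Crot at this spread.

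**Figure D2:**
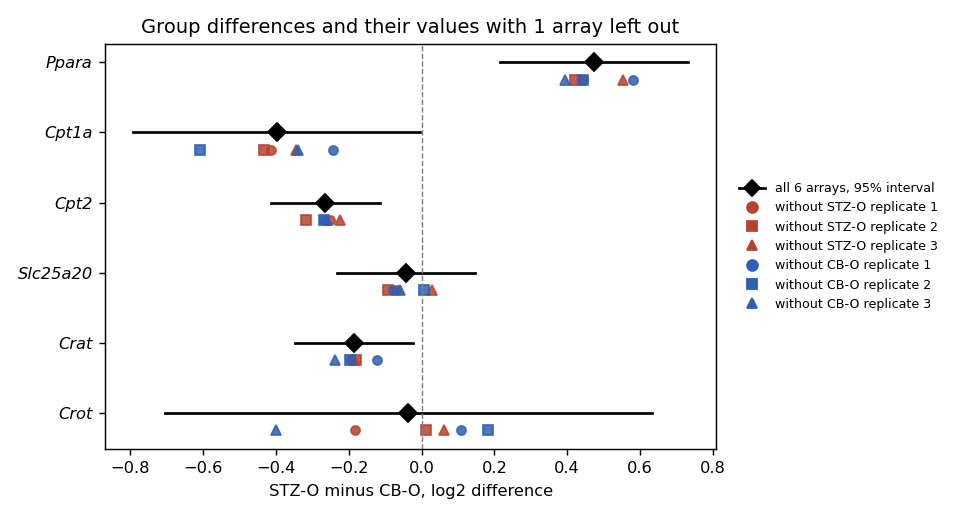
Log2 difference between groups (STZ-O minus CB-O) for each gene. Diamonds and black lines are the value and 95% interval from limma on all 6 arrays; coloured symbols are the values with 1 array left out. Ppara stayed between 0.39 and 0.58 and Cpt2 between -0.32 and -0.22, while Crot ran from -0.40 to 0.18.

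The receptor and the shuttle genes were then set side by side on each array. Levels of different probe sets are not comparable, so each gene was expressed as its deviation from its own mean over the 6 arrays. Ppara deviated by 0.29, 0.34 and 0.08 in STZ-O and by -0.02, -0.30 and -0.39 in CB-O. The mean deviation of the 5 shuttle genes was -0.02, -0.06 and -0.20 in STZ-O and 0.22, 0.11 and -0.05 in CB-O. The receptor minus the shuttle mean was 0.31, 0.40 and 0.27 in STZ-O against -0.24, -0.40 and -0.34 in CB-O. Its means were 0.33 ± 0.06 (SD, n = 3) and -0.33 ± 0.08, so the groups differed by 0.66, with Ppara at 0.47 and the shuttle mean at -0.18. With 1 array left out it was 0.62 to 0.70. This is a description, with no test, since the genes were chosen with their differences known.

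The shuttle genes did not vary as a block. On STZ-O replicate 3 all 5 were below their own means, with Cpt1a at -0.30, Cpt2 and Crot at -0.21, Slc25a20 at -0.17 and Crat at -0.09. On CB-O replicate 3 they parted most widely, with Cpt1a at 0.31 and Crot at -0.71. On CB-O replicate 2 the order was reversed, Crot at 0.45 and Cpt1a at -0.23. Cpt1a and Crot, the members with the widest spread, thus moved apart on 2 of the 3 CB-O arrays.

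**Figure D3:**
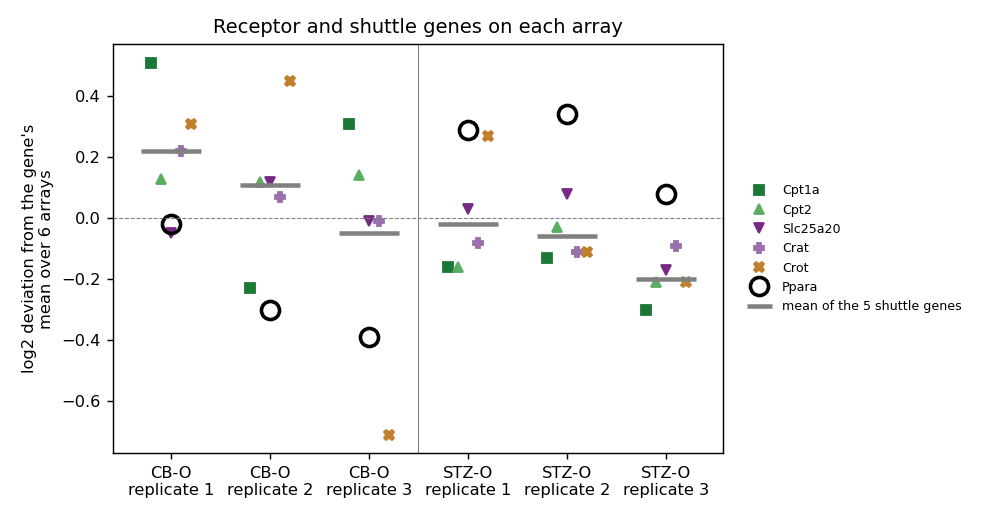
Deviation of each gene from its mean over the 6 arrays (vertical axis, log2) for each array (horizontal axis). Open black circles are Ppara, coloured symbols the shuttle genes and grey bars the mean of those 5. Ppara lay above the grey bar by 0.27 to 0.40 on the STZ-O arrays and below it by 0.24 to 0.40 on the CB-O arrays.

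Among the receptor's partners and coregulators the values lay near 0. Of 20 listed genes 19 were measured, 10 higher and 9 lower (median 0.001), and for 1 the unadjusted p was under 0.05. Only 8 of the 19 lay above 8.26, and differences of dim probe sets are compressed. Rxra, which encodes the obligate partner of PPARalpha in liver, differed by 0.03 ± 0.07 (SE), and the coactivator gene Ppargc1a by -0.06 ± 0.07. Ppargc1a averaged 6.69, within the range of the negative controls. The gene with the small p was Lpin1, whose product lipin 1 makes diacylglycerol and in mouse liver also acts as a coactivator with PPARalpha. It was at 9.73, 9.69 and 8.99 in STZ-O and 8.61, 8.42 and 9.09 in CB-O, and STZ-O replicate 3 fell inside the CB-O range. The Lpin1 difference was 0.77 ± 0.23 (limma adjusted p = 0.709), or 0.62 to 1.01 with 1 array left out.

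Known hepatic targets of PPARalpha were listed without the 6 members, and 32 of 35 were measured. Of these 21 had a higher and 11 a lower mean in STZ-O, the median being 0.039; over all genes 48.1% were higher, and among the 2911 brighter genes, which include 19 of the 32 targets, 59.2%. There were 3 targets higher and 1 lower at an unadjusted p under 0.05, and 0 passed the adjustment over all genes. Cyp4a2, a fatty acid omega-hydroxylase gene, differed by 0.29 ± 0.12 (SE), the peroxisomal thiolase gene Acaa1b by 0.24 ± 0.09 and the fatty acid uptake gene Cd36 by 0.44 ± 0.19. Cd36 was at 8.19, 8.01 and 8.25 in STZ-O but at 7.52, 8.19 and 7.42 in CB-O, so 1 control array matched the STZ-O arrays. Without it, CB-O replicate 2, Cd36 was at 0.68, and Cyp4a2 was at 0.19 without STZ-O replicate 1. Acot3, an acyl-CoA thioesterase gene, went the other way at -0.38 ± 0.10, with all 3 STZ-O arrays below the CB-O arrays. The hormone gene Fgf21, induced through PPARalpha in fasting, was at 0.05 ± 0.09. Cd36, Acot3 and Fgf21 averaged 7.93, 7.35 and 7.11, below 8.26. The mean deviation of the target list was 0.00 to 0.07 in STZ-O and -0.07 to 0.03 in CB-O, and these ranges overlapped.

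Downstream of the shuttle the mitochondrial enzymes were nearly even, while the peroxisomal and ketogenic lists had medians above 0. Most of these genes were bright, with 15 of 15, 10 of 12 and 3 of 3 above 8.26. Among all 2911 genes above that level 59.2% were higher in STZ-O. The mitochondrial and peroxisomal counts below lie near that share, and the ketogenic list holds only 3 genes. In mitochondrial beta-oxidation 8 of 15 genes had a higher and 7 a lower mean (median 0.005), with 0 at an unadjusted p under 0.05 and 0 after limma's adjustment. The 2 smallest p-values belonged to Acadl, the long-chain acyl-CoA dehydrogenase gene, at 0.13 ± 0.06 (SE), and Etfdh, which passes electrons from the dehydrogenases to ubiquinone, at 0.12 ± 0.07, or 0.07 without CB-O replicate 1. In peroxisomal oxidation 7 of 12 were higher (median 0.061), 2 of them and 0 lower genes at an unadjusted p under 0.05, with Acox2, the branched-chain acyl-CoA oxidase gene, at 0.23 ± 0.09 and Acaa1b given above. Acox2 was at 0.14 without CB-O replicate 3. Of 5 ketogenesis genes listed 3 were measured, and all had a higher mean (median 0.078). The ketone dehydrogenase gene Bdh1 was at 0.25 ± 0.18 and Acat1 at 0.08 ± 0.06. Slc16a1, the remaining gene of the list, was level between the groups at 0.003 ± 0.08. With 1 array left out Bdh1 ranged from 0.09 to 0.47 and Acat1 from 0.05 to 0.11.

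Upstream of CPT1A, the genes that set malonyl-CoA lay on both sides of 0. Only 4 of the 13 lay above 8.26, with Acaca, Slc25a1 and Prkaa2 among them. The others named here were dimmer, and differences of dim probe sets are compressed. Acaca and Acacb, the acetyl-CoA carboxylases that make it, were at 0.27 ± 0.10 and 0.31 ± 0.12 (SE). Slc25a1, the mitochondrial citrate exporter gene that feeds them, was at 0.15 ± 0.06. The subunits of AMP-activated kinase, which inhibits the carboxylases, differed in sign. Of its catalytic subunit genes Prkaa2 was at -0.20 ± 0.07 and Prkaa1 at 0.08 ± 0.08. Prkab1 was at -0.22 ± 0.07, while Prkab2, Prkag1 and Prkag2 were at -0.05, -0.01 and -0.02, and Stk11, which encodes an activating kinase, at -0.05. Mlycd, the decarboxylase that removes malonyl-CoA, was at -0.06 ± 0.07. For Acaca, Slc25a1, Prkaa2 and Prkab1 the groups did not overlap, and for Acacb CB-O replicate 1 at 7.64 reached the STZ-O range of 7.63 to 7.73. Over the 13 genes 6 were higher and 7 lower (median -0.008), with 3 higher and 2 lower at an unadjusted p under 0.05 and 0 after limma's adjustment over all genes. Acaca was at 0.15 without STZ-O replicate 2, and Acacb ranged from 0.19 without CB-O replicate 2 to 0.44 without CB-O replicate 1.

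Supply of the shuttle's substrates showed 0 genes at an unadjusted p under 0.05 in limma. Above 8.26 lay 2 of 6 carnitine uptake and synthesis genes, 5 of 11 synthetase and transport protein genes and 1 of 7 relatives. Slc22a5, Slc16a9, Acsl3 and Slc25a29 averaged 7.48, 6.15, 7.27 and 6.28, below that level, and differences of dim probe sets are compressed. For carnitine uptake and synthesis 2 of 6 measured genes were higher and 4 lower (median -0.031). Slc22a5, the plasma membrane carnitine transporter gene, was at -0.004 ± 0.09 (SE), Aldh9a1, of carnitine synthesis, at -0.07 ± 0.09, and Slc16a9 at -0.06 ± 0.05. Of the 11 acyl-CoA synthetase and fatty acid transport protein genes 7 were higher (median 0.035), led by Acsl5 at 0.13 ± 0.09 and Acsl3 at 0.10 ± 0.08. With 1 array left out these were 0.04 to 0.22 and 0.03 to 0.17, both lowest without CB-O replicate 3. Among the 7 relatives of the members 3 were higher and 4 lower. Cpt1b, the muscle form of the entry enzyme, averaged 6.47 ± 0.06 in STZ-O and 6.50 ± 0.07 in CB-O (SD, n = 3), within the range of the negative controls, with a difference of -0.03 ± 0.06 (SE). The liver mitochondrial carrier gene Slc25a47 was at 0.32 ± 0.20, or 0.10 to 0.45 with 1 array left out, and Slc25a29 at 0.08 ± 0.07, or 0.03 to 0.15.

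**Figure D4:**
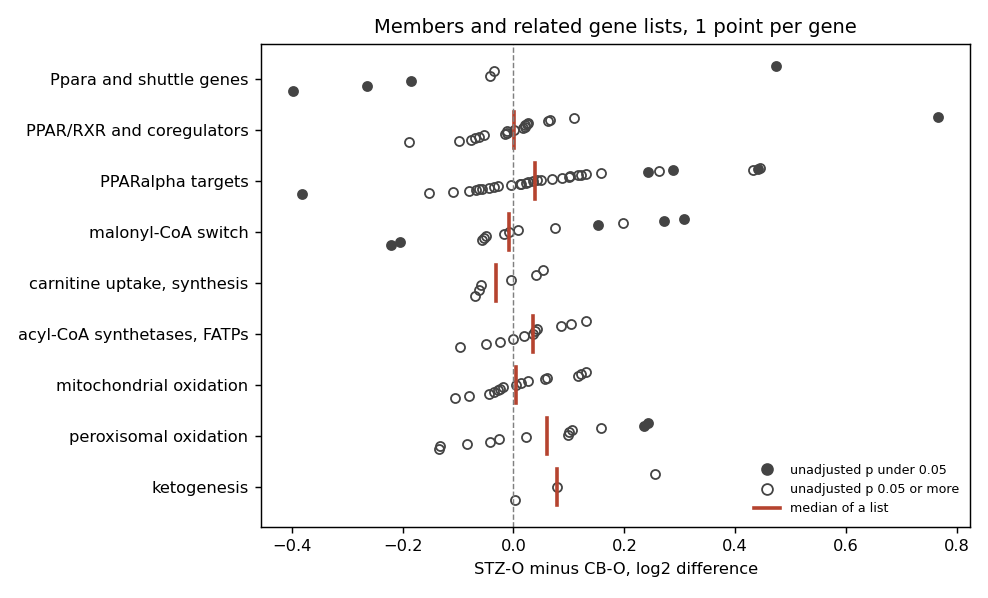
Log2 difference, STZ-O minus CB-O, for each gene of the members and of 8 related lists. Filled points have an unadjusted limma p under 0.05, open points do not, and red lines are list medians. The receptor and its shuttle genes lay between -0.40 and 0.47, while the mitochondrial oxidation genes lay within 0.13 of 0. PPARalpha targets ran from -0.38 to 0.44, and Lpin1 in the partner and coregulator list was at 0.77.

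For 3 members, the genes with the most similar course over the 6 arrays were sought among 2910 brighter genes. Likeness was the root mean square distance between deviations from each gene's own mean. Nearest to Ppara were RGD1309362 (distance 0.101), Cops9 (0.108), a COP9 signalosome subunit gene, the growth factor receptor gene Egfr (0.116) and the endoplasmic reticulum gene Herpud1 (0.117), where the median gene was at 0.280. Nearest to Cpt2 were Arhgap29 (0.048), the tyrosyl-tRNA synthetase gene Yars1 (0.050), the kinase subunit gene Prkaa2 (0.057) and the haptoglobin gene Hp (0.066), against a median of 0.179. Nearest to Cpt1a were Sirpa (0.157), the transcription factor gene Xbp1 (0.160), the lipase gene Pnpla2 (0.161) and the lipid droplet gene Cidea (0.180), against 0.334. Xbp1 and Sirpa shared the low value of CB-O replicate 2, at 10.92 against 11.35 on both other CB-O arrays for Xbp1.

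Markers of tissue state were measured beside these results. Hepatocyte markers were bright, 7 of 8 above 8.26, with a mean deviation of -0.10 to -0.02 in STZ-O and 0.04 to 0.11 in CB-O, so the list mean was lower in STZ-O with no overlap. The single markers were mixed, 6 of 8 lower and 2 higher. Ass1 at -0.34 ± 0.08 (SE) and Serpina1 at -0.38 ± 0.11, the one marker not above 8.26, lay below the CB-O arrays with an unadjusted p under 0.05. The albumin gene Alb was at 0.04 ± 0.06, and Ttr at 0.08 ± 0.05 lay above the CB-O arrays. For the other 5 the groups overlapped. Of the sinusoidal endothelial markers 9 of 10 were lower (median -0.169), Stab2 at -0.18 ± 0.07 without overlap, and of the Kupffer markers 8 of 11 were higher (median 0.027). Sinusoidal endothelial markers were at -0.39 and Kupffer markers at -0.38 on STZ-O replicate 3, the array on which all 5 shuttle genes were below their means and Ppara was lowest in its group. On the other STZ-O arrays these were 0.06 to 0.08 and 0.19 to 0.21. Without that array Cpt2 was at -0.22 and Ppara at 0.55. None of the 6 cholangiocyte, 7 lymphocyte and neutrophil, or 11 adipocyte, muscle and pancreas markers measured reached 8.26. Of the 7 lymphocyte and neutrophil markers 4 were higher and 3 lower (median 0.067). Only the leukocyte marker Ptprc among them had an unadjusted p under 0.05. It was higher on every STZ-O array, at 0.32 ± 0.08 (limma unadjusted p = 0.00493, adjusted p = 0.651), in the direction of Ppara. In whole tissue, fewer cells of a type and less RNA per cell cannot be told apart, and the part of cell makeup in the members' differences was not tested.

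Genes of the clock and of the glucocorticoid response, which are known to bear on Ppara in liver, also varied. Core clock genes were higher in 10 of 15, where 48.1% of all genes and 59.2% of the 2911 brighter genes were higher. Bhlhe40 was at 0.18 ± 0.06 (SE), Bmal1 at 0.31 ± 0.11, Nr1d2 at 0.15 ± 0.05 and Cry1 at -0.24 ± 0.09. None of these passed limma's adjustment. Cry1 was at -0.15 without CB-O replicate 2 and at -0.14 with its lowest probe set. Of the fasting and glucocorticoid genes, set beside the same shares, 7 of 10 were higher (median 0.123). Among them were Zbtb16 at 1.07 ± 0.28 and Tsc22d3 at 0.27 ± 0.09, while Sgk1 was at -0.29 ± 0.11. In that list the groups were apart for Zbtb16 and Tsc22d3 only. Zbtb16 was at 0.69 without CB-O replicate 1 and Tsc22d3 at 0.17 without STZ-O replicate 1. Bmal1 and Cry1 averaged 6.02 and 6.47, and Tsc22d3 and Sgk1 7.96 and 7.31, all below 8.26. The list's mean deviation was 0.05 to 0.15 in STZ-O and -0.21 to 0.08 in CB-O. Y-linked genes were level, with list deviations of -0.01 to 0.04 in STZ-O and -0.09 to 0.09 in CB-O. Of the 5 measured, 2 had means above 8.26. Over the 6 arrays Eif2s3y was at 8.38 to 8.67, Uty at 8.16 to 8.29 and the male-biased gene Cyp2c11 at 11.83 to 12.14. No array thus stood low for these 3 genes, though the labels give no sex for single animals. Of the female-biased liver genes 4 of 5 were higher (median 0.211). Cyp2c7 at 0.21 ± 0.07 and Akr1b7 at 0.20 ± 0.07 were without overlap. For Cyp2c12 at 0.39 ± 0.32, A1bg at 0.27 ± 0.16 and Sult2a1 at -0.01 ± 0.11 the groups overlapped. Female-biased list deviations also overlapped, at -0.13 to 0.23 in STZ-O and -0.15 to -0.06 in CB-O. Of the male-biased genes 1 of 3 was higher. Akr1b7 averaged 5.62 and A1bg 5.43, near the negative control median of 5.51. The part of these genes in the Ppara difference was not tested.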

How the data were processed

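Liver RNA of 6 rats was read on 6 one-colour arrays. The authors deposited log2 values, 1 per probe set and array, made with RMA (robust multi-array average) in Expression Console 1.4.1 of Affymetrix, tools that the submitters' processing notes name without roles. Which parameters, annotation and genome build applied is not given in the sources used here. RMA brings arrays to a common distribution (array medians 5.77 to 5.82) and compresses differences of dim probe sets. After 1738 control probe sets were left out, 68842 of 70580 probe sets remained. Through the platform annotation 23446 had 1 symbol, 505 several and 44891 none here. Symbols were updated through Entrez identifiers for 22077. Each of 22093 genes took its brightest probe set. Some listed genes were not analysed here.

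Differences are STZ-O minus CB-O, fitted with limma 3.58.1 (lmFit, eBayes, two-sided, no covariate) in R 4.3.3 over all genes, with Benjamini-Hochberg adjustment and a threshold of 0.05. The fit was tested on simulated data whose known changes were larger than any difference of a member. That test does not bear on how well differences of the members' size are found. The number of arrays limits the precision. P-values rest on the spread between these 3 animals per group, which limma moderates with that of all genes. The fathers were the animals treated, and offspring that share a father would not be independent. The labels do not give the number of fathers, so the p-values and intervals take no account of this. In an ordinary t-test of the same fit, without moderation, the unadjusted p was 0.0267 for Ppara and 0.154 for Cpt1a. By that test it was 0.00851 for Cpt2 and 0.0514 for Crat. The members and lists were chosen with earlier results of these data known. Other genes named were those with the smallest unadjusted p in each list (up to 6 under 0.05, otherwise 2), 8 set regulators, and the 4 nearest in profile to Ppara, Cpt1a and Cpt2; in lists of cell type and sex only some are printed. Alb, Ttr, Stk11, Slc16a1, Cyp2c12, A1bg, Sult2a1 and the other subunits of AMP-activated kinase were named after their values were seen. Any 2 arrays correlated across genes at 0.991 to 0.995. Alternatives covered arrays left out, a replicate block, dim genes, variance model, weights, probe set choice, scaling and a Y-linked covariate.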

Additional observations from a re-analysis of the deposited data

How the results depend on the processing

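Over 17 alternatives the differences of Ppara, Cpt1a and Cpt2 kept their sign, as did that of Crat over the 16 that included it (it was left out with the dim genes). Outside the fits with 1 array left out, Ppara was at 0.45 to 0.51, Cpt1a at -0.42 to -0.30, Cpt2 at -0.30 to -0.25 and Crat at -0.19 to -0.17. No member had an adjusted p under 0.05 in any alternative; the lowest was 0.42, for Cpt1a without CB-O replicate 2. With 1 array left out, Slc25a20 ranged from -0.091 to 0.029 and Crot from -0.40 to 0.18, and with array weights Crot was at 0.036. The count of genes under the adjusted threshold was 0 in 14 alternatives, 0 to 1 with 1 array left out, 2 with an intensity trend and robust variances, and 1 with the lowest probe set per gene; none was a member. The replicate block gave 0 genes, with Ppara at 0.47 (limma adjusted p = 0.46) and no call changed. The SE of Ppara was 0.08 with the block against 0.11 without it, and that of Cpt2 0.07 against 0.06. Deviations of same-numbered arrays correlated at 0.146, -0.175 and 0.100. Arrays with different numbers were not compared, so whether the numbers pair the animals was not settled. Repeated centring or quantile normalization moved the median of all genes by 0.0067 and -0.0023. Among other genes near 0, the sign changed with 1 array left out for Aldh9a1 (-0.158 to 0.001), Cpt1b (-0.065 to 0.011), Fgf21 (-0.043 to 0.114), Rxra (-0.015 to 0.084) and Slc22a5 (-0.079 to 0.058). It also changed for Rxra with quantile normalization (-0.009), and for Slc22a5 with the lowest probe set (0.017), the mean probe set (0.006), weights (0.00028) or centring (0.003). The cause was not tested. With 3 arrays per group the members' 95% intervals were 0.30 wide for Cpt2 to 1.33 for Crot on the log2 scale.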
